A study of Mus musculus with 4 samples.

Results

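The genes followed here were 10 inflammatory cytokine and inflammasome genes of the mouse, namely Il1a, Il1b, Il1rn, Il18, Tnf, Osm, Il10, Nlrp3, Casp1 and Acod1. They were picked by symbol from the 32285 genes measured, and each of the 10 had 1 entry in each of the 8 matrices. Their transcripts were counted in single CD45+ cells, that is leukocytes and microglia, of 2 brain regions, thalamus and hippocampus (HPC), in C57B6/J mice (the genotype as labelled). All mice had received a cortical brain injury. Per the methods of the study, the injured hemispheres were taken and the cells of 4 mice were pooled per region. The methods do not describe tagging, which was taken from the multiplexing oligos in the counts. No uninjured group was analysed here, the labels give no time after injury or age, and since 1 library was made per region, an effect of region and one of library cannot be told apart. The data were 4 tagged sets per region, written thalamus set 1 to 4 and HPC set 1 to 4. Each set was taken as 1 mouse, which the labels do not state.

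Apart from Osm, the members have a place in the steps given here, though not all of them pass through the inflammasome. Pattern and danger signals switch on NF-kB, which raises transcription of Tnf, Il1a, Il1b, Nlrp3 and Acod1, and the assembled NLRP3 inflammasome then activates caspase-1, which cuts the precursors of IL-1 beta and IL-18 into their secreted forms. The pathway is held back by the IL-1 receptor antagonist (Il1rn), by IL-10 and by itaconate, the metabolite made by the enzyme that Acod1 encodes. In the injured brain these signals come from microglia, the resident macrophages, and from leukocytes that enter from blood. Transcript counts say nothing on cutting or release of the proteins.

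After filtering, 24939 of 29190 cells with 119958441 molecules (UMIs, each transcript molecule counted once) were kept, 11537 from the thalamus and 13402 from the HPC. Cells were sorted into classes by counts of marker genes, none of them a member. This gave 19428 microglia, 2751 T cells, 876 neutrophils, 172 monocytes, 122 NK cells, 73 B cells, 62 dendritic cells and 17 border-associated macrophages, and 1438 cells (5.77%) stayed without a class. Microglia were split by their markers into a homeostatic range (12385 cells), an intermediate range (3702), a range of disease-associated microglia (DAM, 2379), an interferon range (837) and a cycling range (125). These are ranges of a marker count and not cell types. Near the limit of the DAM range, 791 microglia had exactly 4 of its markers and 1178 had exactly 3. DAM-range cells made up 17.7% to 34.3% of thalamic microglia by set, and 0.811% to 5.09% of those of the HPC. HPC set 3 held 16 of them and was left out of all tests on that range. HPC set 1 stood apart in its neutrophils, at 9.0% of its cells against 0.386% to 4.70% in the other sets. The share of cells that passed the filters was 80.5% in HPC set 1 and 92.9% to 95.6% in the other HPC sets. In the thalamus sets it was 80.45% to 87.9%, so that HPC set 1 lay among them. Values below are UMIs of the gene per 10000 UMIs of the summed cells of a set, with the mean ± SD over sets. Such values were compared between cells and not between genes.

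On GRCm38 (GENCODE M21), all 10 members are protein-coding. Of the IL-1 family, Il1a (ENSMUSG00000027399, 129299610 to 129309972), Il1b (ENSMUSG00000027398, 129364570 to 129371139) and Il1rn (ENSMUSG00000026981, 24336853 to 24351494) lie on chromosome 2, the first pair side by side on the minus strand. Il18 (ENSMUSG00000039217, 50554827 to 50581840) and Casp1 (ENSMUSG00000025888, 5298517 to 5307265) lie on chromosome 9, and Nlrp3 (ENSMUSG00000032691, 59541568 to 59566956) and Osm (ENSMUSG00000058755, 4236420 to 4241026) on chromosome 11. Il10 (ENSMUSG00000016529) is on chromosome 1, 131019845 to 131024974, Acod1 (ENSMUSG00000022126) on chromosome 14, 103046977 to 103056573, and Tnf (ENSMUSG00000024401) on chromosome 17, 35199381 to 35202007, minus strand. The DNA just before the start of a gene holds part of what sets its transcription, so this stretch is shown for 4 members on which the results on classes and microglial ranges turn. The sequences are the 250 bases upstream of the RefSeq start on GRCm38.p6, 5′ to 3′ on the strand of the gene. Capitals mark matches, on either strand, to the TATA box letters TATAAA and to the AP-1 letters TGANTCA. The NF-kB letters GGGNNNTTCC were also searched.
Il1a, chr2:129309973-129310222, minus strand: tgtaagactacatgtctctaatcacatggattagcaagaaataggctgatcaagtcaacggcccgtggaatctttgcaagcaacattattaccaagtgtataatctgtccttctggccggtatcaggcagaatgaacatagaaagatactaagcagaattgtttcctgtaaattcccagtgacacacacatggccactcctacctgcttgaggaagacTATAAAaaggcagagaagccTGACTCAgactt
Il1b, chr2:129371140-129371389, minus strand: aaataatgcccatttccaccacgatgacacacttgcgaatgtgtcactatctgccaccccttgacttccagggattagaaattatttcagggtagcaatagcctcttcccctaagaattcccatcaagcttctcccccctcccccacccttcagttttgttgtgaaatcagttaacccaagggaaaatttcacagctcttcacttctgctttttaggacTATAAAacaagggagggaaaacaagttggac
Tnf, chr17:35202008-35202257, minus strand: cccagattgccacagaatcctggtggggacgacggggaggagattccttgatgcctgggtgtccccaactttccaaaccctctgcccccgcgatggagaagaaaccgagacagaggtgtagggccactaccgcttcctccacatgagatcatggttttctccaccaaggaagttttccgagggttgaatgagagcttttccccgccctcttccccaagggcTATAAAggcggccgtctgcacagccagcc
Acod1, chr14:103046762-103047011, plus strand: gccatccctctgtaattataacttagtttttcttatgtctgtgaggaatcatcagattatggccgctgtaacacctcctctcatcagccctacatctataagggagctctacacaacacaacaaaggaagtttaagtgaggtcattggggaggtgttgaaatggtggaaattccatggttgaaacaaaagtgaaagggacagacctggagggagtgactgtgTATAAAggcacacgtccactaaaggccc
All 4 had a TATAAA match, which began 32 (Il1a), 31 (Il1b), 29 (Tnf) and 28 (Acod1) bases before the start, and 12.4% of 32851 promoter windows of this length held one anywhere. Il1a alone among the 4 had a TGANTCA match, 12 bases before the start, against 6.75% of all windows. None of the 4 windows held GGGNNNTTCC, which occurred in 4.65% of all windows. RefSeq windows were found for 8 of the 10 members. Of the members not shown, Il18 had a TATAAA match 175 bases before the start, and Il1rn, Casp1 and Nlrp3 had none in any window. A window of Il1rn had a TGANTCA match 141 bases before the start, and another a GGGNNNTTCC match 51 bases before it. The matches of the 4 members shown thus do not stand for all members. A match is a match of letters only, and its absence says nothing of factors bound elsewhere.

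**Figure D1:**
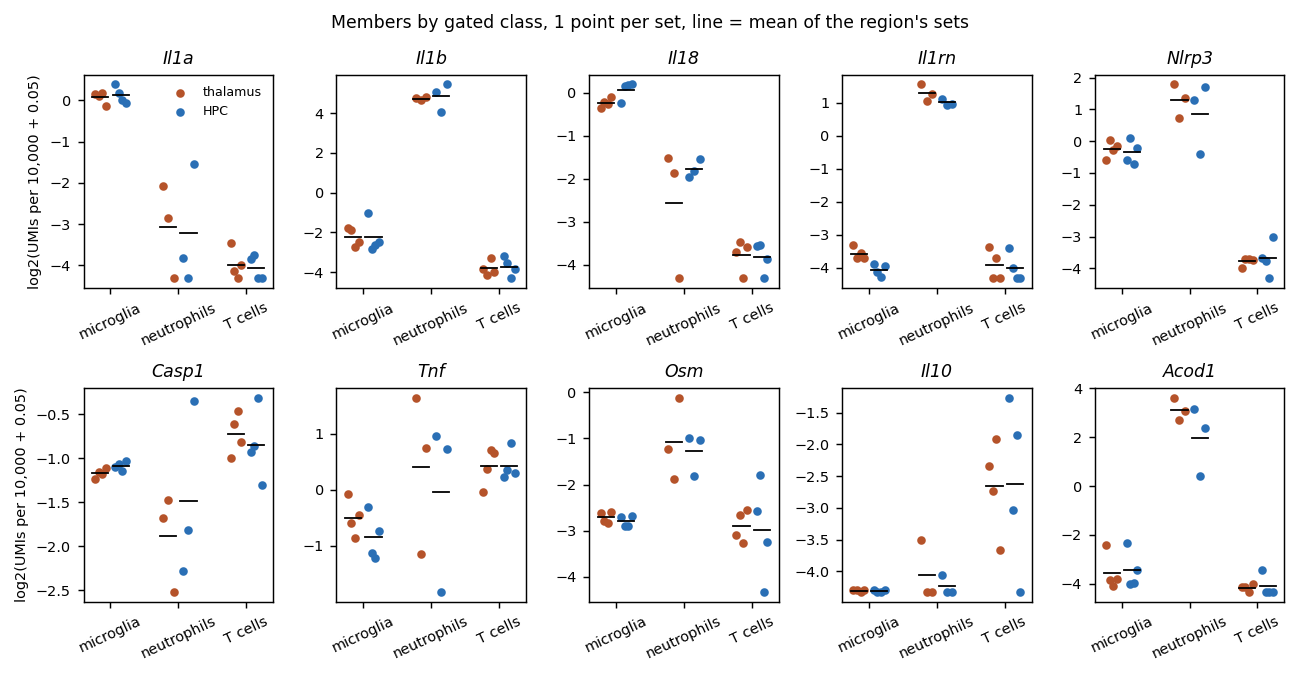
Levels of the 10 members, as log2(UMIs per 10000 + 0.05), in microglia, neutrophils and T cells. Each point is 1 tagged set with at least 20 cells (thalamus orange, HPC blue) and each line the mean of the sets of a region. Il1b, Acod1 and Il1rn of all 6 neutrophil sets lie above all 8 microglial sets, and Il1a and Il18 of microglia above those of the other classes.

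The first question was which immune cells carried the transcripts. Il1b, Acod1 and Il1rn had their highest means in neutrophils, where for Acod1 and Il1rn the monocyte sets overlapped and were not tested, Il1a and Il18 were higher in microglia than in neutrophils or T cells, and Il10 was mostly found in T cells. Between neutrophils and microglia of the same set (6 sets with at least 20 neutrophils), edgeR called 9 of 9 members tested, 6 higher and 3 lower in neutrophils, in a comparison where 63.8% of all 11666 genes tested were called. Between T cells and microglia (8 sets) it called 6 of 8, 2 higher and 4 lower in T cells, where 76.7% of all 12295 genes were called. The median log2 fold change of all genes was -0.504 for neutrophils over microglia and -0.0886 for T cells over microglia. With scaling by library totals alone the medians were -0.608 and -0.0317. A two-sided exact paired permutation test of log2(level + 0.05) was also run for each of the 20 pairs of member and class. With 6 sets its p cannot go below 0.0312, and with 8 sets not below 0.00781. After adjustment over the 20 pairs, 13 of them passed. For the other classes too few sets had enough cells for a test. In whole sets, fewer cells of a class and less RNA per cell cannot be told apart, and the levels here are per UMI of the class itself.

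The ligands of the IL-1 receptor came from different cells. Il1b encodes IL-1 beta, which needs cutting before it is active. In neutrophils its level was 26.7, 24.95 and 27.9 in thalamus sets 1, 2 and 4 and 33.2, 16.8 and 43.9 in HPC sets 1, 2 and 4, a mean of 28.9 ± 9.08 (SD, n = 6). In microglia of the 8 sets it ran from 0.0912 to 0.445 with a median of 0.128, so that no set of 1 class overlapped the other. The edgeR log2 fold change of neutrophils over microglia was 7.30 (SE 0.20, adjusted p = 2.27e-64), and the level was higher in 6 of 6 sets (exact permutation p = 0.0312). Monocytes had 6.12 ± 4.47 (3 sets), and the 62 dendritic cells of all sets together had 2.47 (exact 95% Poisson interval 2.03 to 2.98, counting error only). T cells, which should lack Il1b, had 0.0259 ± 0.0218 (n = 8), and a UMI of Il1b was found in 84.5% of neutrophils, 5.01% of microglia and 0.763% of T cells. The median cell had 1920 UMIs in neutrophils, 4690 in microglia and 3558 in T cells. With every cell thinned to 1000 UMIs, the mean share over sets was 71.0%, 1.38% and 0.234%.

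Il1a encodes IL-1 alpha, which is active without cutting by caspase-1. It went the other way. Microglial sets held 0.853 to 1.26, with a median of 1.05, and neutrophils 0 to 0.294 with a mean of 0.0985 ± 0.1197 (n = 6), from 11 UMIs in all. The difference of neutrophils from microglia was a log2 fold change of -3.88 (SE 0.37, adjusted p = 1.05e-17), with 0 of 6 sets higher in neutrophils (exact permutation p = 0.0312). T cells had 0.0128 ± 0.0144 (n = 8) and monocytes 0.00905, and the sets of neutrophils and T cells overlapped. Il1a was found in 30.5% of microglia and 0.618% of T cells.

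Il18 encodes IL-18, the other cytokine cut by caspase-1. Its level was 0.726 to 1.097 in microglia (median 0.848), 0.624 ± 0.214 in monocytes (3 sets), 0.209 ± 0.110 in neutrophils (n = 6) and 0.0237 ± 0.0160 in T cells (n = 8). The order was thus microglia, monocytes, neutrophils and T cells, and of these neighbours microglia and monocytes, and neutrophils and T cells, overlapped in their sets. Neutrophils had less than microglia in 6 of 6 sets (log2 fold change -1.80, SE 0.28, adjusted p = 8.72e-09).

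Il1rn encodes the secreted antagonist that occupies the IL-1 receptor without signalling. It was at 2.89, 2.00 and 2.37 in neutrophils of thalamus sets 1, 2 and 4 and at 2.11, 1.86 and 1.91 in those of HPC sets 1, 2 and 4. Monocytes had 2.39, 0.255 and 1.15 in thalamus sets 1 and 2 and HPC set 1, which overlapped neutrophils. Microglia had 0.0225 ± 0.0162 (n = 8) and T cells 0.0162 ± 0.0204 (n = 8). The neutrophil sets lay close together and none reached down to the microglial sets, with a log2 fold change over microglia of 6.66 (SE 0.24, adjusted p = 5.83e-51, exact permutation p = 0.0312). For T cells and microglia the log2 fold change was -0.39 (SE 0.52, adjusted p = 0.502), so that microglial Il1rn over all sets was not told from the level in T cells. The share of cells with a UMI was 24.2% of neutrophils, 0.942% of microglia and 0.727% of T cells, or 0.203% and 0.145% of microglia and T cells after thinning.

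Of the inflammasome genes, Nlrp3 encodes the sensor. Neutrophils held 3.42, 1.60 and 2.49 in thalamus sets 1, 2 and 4 and 2.43, 0.699 and 3.23 in HPC sets 1, 2 and 4, and microglia held 0.562 to 1.01 (median 0.794). In HPC set 2 neutrophils were below microglia, and in the other 5 sets above. edgeR called the difference (log2 fold change 1.65, SE 0.19, adjusted p = 3.25e-13), while the exact permutation test gave p = 0.0625. T cells had 0.0274 ± 0.0214 (n = 8). Casp1, which encodes the protease of the inflammasome, differed little between classes. It was at 0.375 to 0.439 in microglia (median 0.407), 0.355 to 0.757 in T cells (median 0.510), 0.125 to 0.735 in neutrophils (median 0.248) and 0.755 ± 0.166 in monocytes (3 sets). All neighbours in this order overlapped. edgeR called T cells higher by 0.28 (SE 0.10, adjusted p = 0.0185, 7 of 8 sets) and neutrophils lower, at -0.65 (SE 0.29, adjusted p = 0.0417, 5 of 6 sets), on the log2 scale. The exact permutation p of these differences was 0.0391 and 0.125, and neither passed the adjustment over 20 pairs. The neutrophil value of Casp1 lay near the median of all genes in that fit, -0.504.

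Acod1 encodes the mitochondrial enzyme that makes itaconate and is raised by NF-kB in activated myeloid cells. Neutrophils had 12.2, 6.40 and 8.35 in thalamus sets 1, 2 and 4 and 8.87, 1.28 and 5.14 in HPC sets 1, 2 and 4. Microglia had 0.00894 to 0.1498 (median 0.0207), without overlap, and T cells 0.00873 ± 0.0150 (n = 8). The log2 fold change of neutrophils over microglia was 7.07 (SE 0.22, adjusted p = 4.27e-57, exact permutation p = 0.0312). Monocytes held 1.24 ± 1.46 (3 sets), a mean carried by HPC set 1 at 2.91, which overlapped neutrophils.

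Tnf encodes the cytokine TNF, which was found in both lymphoid and myeloid cells. Sets ran from 0.233 to 3.08 in neutrophils (median 1.62), from 0.923 to 1.74 in T cells (median 1.23) and from 0.378 to 0.900 in microglia (median 0.582). T cells were above microglia in 8 of 8 sets and no T cell set reached down to the highest microglial set (log2 fold change 0.98, SE 0.15, adjusted p = 1.26e-05, exact permutation p = 0.00781). Neutrophils were higher in 4 of 6 sets, which edgeR called (log2 fold change 1.16, SE 0.21, adjusted p = 9.18e-07) and the exact permutation test did not (p = 0.156). Tnf was found in 23.8% of T cells and 15.5% of microglia. Osm, which encodes oncostatin M, an IL-6 family cytokine, was at 0.433 ± 0.237 in neutrophils (n = 6), 0.413 ± 0.585 in monocytes (3 sets), 0.0985 ± 0.0123 in microglia (n = 8) and 0.0953 ± 0.0706 in T cells (n = 8). Neutrophils had more Osm than microglia in 6 of 6 sets (log2 fold change 2.07, SE 0.32, adjusted p = 1.33e-08).

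Il10 encodes the anti-inflammatory cytokine IL-10. Of its UMIs, 178 were in T cells, 6 in microglia, 2 each in neutrophils and B cells, 1 in monocytes and 0 in NK and dendritic cells. T cells had 0.148, 0.101, 0.216 and 0.0291 in thalamus sets 1 to 4 and 0.367, 0.0715, 0.227 and 0 in HPC sets 1 to 4. They were above microglia in 7 of 8 sets (exact permutation p = 0.0156), with 0 UMIs in the other one. The gene was too low for the edgeR fit. A UMI was found in 2.18% of T cells and 0.0309% of microglia. The 178 UMIs lay in 60 T cells, and 9 T cells with 5 or more (up to 21) held 48.3% of them. After its values had been seen, Il10 was split by a UMI of Foxp3, the factor that defines regulatory T cells. The 285 T cells with Foxp3 were 10.4% of T cells and held 107 of the 178 UMIs (60.1%). Their level was 0.860 ± 0.497 against 0.0669 ± 0.0733 in T cells without Foxp3, higher in 6 of 6 sets with at least 10 such cells. Tnf was at 0.631 ± 0.434 in them and 1.33 ± 0.260 in the rest, higher in 1 of 6 sets. Low Tnf was not particular to these cells. In the 164 T cells with a UMI of Cd8a it was at 0.403 ± 0.1585 against 1.36 ± 0.331, higher in 0 of 5 sets. In the 884 T cells with a UMI of Cd4 it was at 1.24 ± 0.229 against 1.22 ± 0.321, higher in 3 of 7 sets.

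Il1b, Acod1 and Il1rn in microglia were set beside RNA of neutrophils, since neutrophils held far more of them. S100a8 and S100a9, abundant neutrophil transcripts, served as the yardstick. Per 100 UMIs of these, neutrophils held 7.02 UMIs of Il1b, T cells 9.85 and microglia 87.1, and in single sets microglia ran from 38.6 to 147. For Acod1 the values were 1.90, 5.85 and 25.6, and microglia of single sets ran from 4.94 to 58.9, with thalamus set 3, HPC set 2 and HPC set 3 at 4.94, 5.05 and 5.96. For Il1rn they were 0.505, 7.08 and 9.36, with 14.55 to 22.5 in thalamic and 0.459 to 7.35 in HPC microglia. T cells of thalamus sets 1 to 4 held 28.0, 0, 14.3 and 0, from 7, 0, 1 and 0 UMIs of Il1rn, and thus reached the thalamic microglial values in set 1. T cells of HPC sets 1 to 4 held 8.14, 4.76, 0 and 0. Microglial Il1b lay above the pooled T cell value in 8 of 8 sets, and Acod1 lay close to it in the 3 sets named. The T cell values rest on 325 UMIs of S100a8 and S100a9. S100a8 and S100a9 were at 0.343 in microglia and 0.540 in T cells of HPC set 1, against 0.154 to 0.236 and 0.168 to 0.280 in the other sets. The neutrophil marker list summed to 4.35 to 4.49 in thalamic microglia and 4.84 to 5.17 in HPC microglia. Of its 9 markers, 7 to 9 were detected in microglia of each set. Ly6g was at 0 in 7 of 8 sets and Hdc in thalamus set 2, and the level of Ly6g in neutrophils is not given here. The monocyte list summed to 0.469 to 1.20 in thalamic and 0.250 to 0.621 in HPC microglia. The part of such RNA in the results on microglia was not tested further.

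Within microglia the members were spread in different ways over cells. Il18, Il1a and Nlrp3 were found in 32.1%, 30.5% and 27.9% of microglia and Casp1 in 17.5%, mostly with few UMIs a cell. No microglial cell had 5 or more UMIs of Casp1, and 31 cells with 5 or more of Il18 held 1.96% of its UMIs. Il1b, Acod1 and Tnf were uneven. For Il1b, 68 of 19428 microglia had 5 or more UMIs (up to 41) and held 35.2% of all its microglial UMIs. For Acod1, 22 cells (up to 37 UMIs) held 41.7%, and for Tnf 213 cells (up to 26 UMIs) held 25.9%. Of the 68 cells high in Il1b, 29 were from HPC set 1, and 25 were in the homeostatic, 19 in the intermediate, 16 in the DAM and 8 in the interferon range. Their median was 9 microglial and 1 neutrophil markers detected and 6376 UMIs, above the 4690 of all microglia. HPC set 1 and thalamus set 1 gave 12 and 6 of the 22 cells high in Acod1, and 57 and 47 of the 213 cells high in Tnf.

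**Figure D2:**
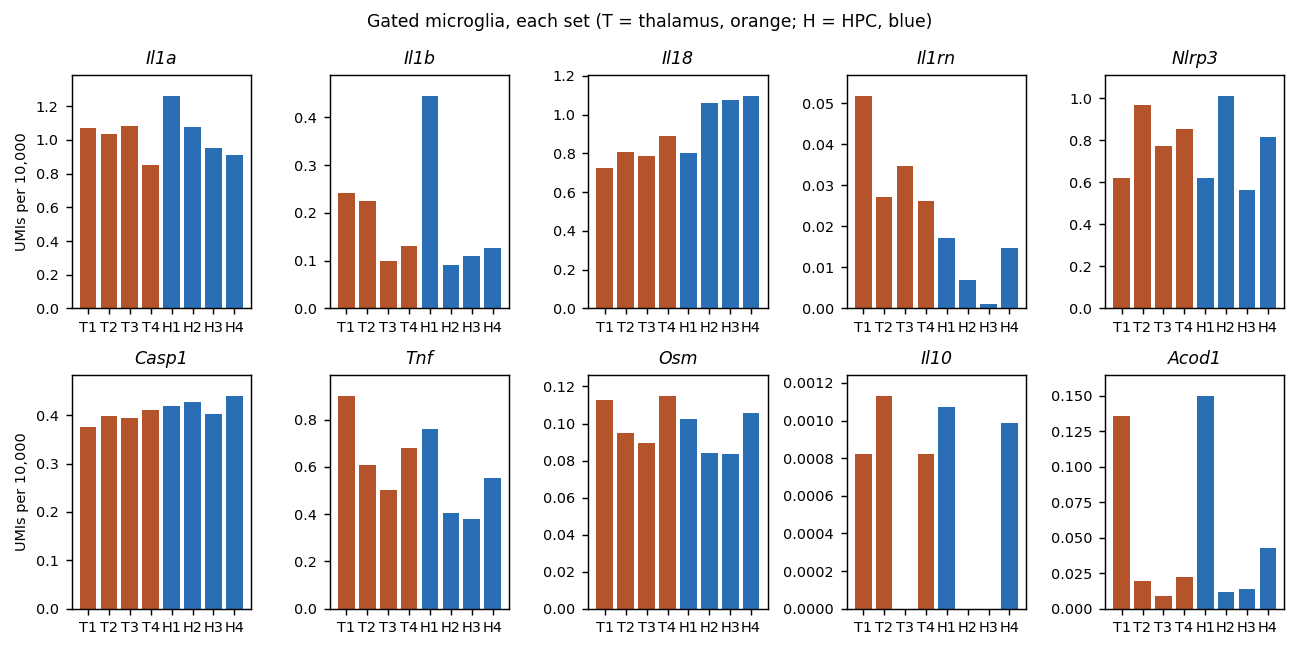
Level of the members in all microglia of each tagged set, in UMIs per 10000, as bars from 0 (thalamus sets T1 to T4 orange, HPC sets H1 to H4 blue). Il1rn ran from 0.0262 to 0.0519 (thalamus) and from 0.00108 to 0.0172 (HPC), and Il1b of H1 stood at 0.445.

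The next question was whether microglia of the regions differed. Over all microglia, edgeR called 1 of 9 members tested, Il1rn, in a comparison where 13.9% of 13098 genes were called. DAM-range cells made up 17.7% to 34.3% of these microglia in thalamus sets and 0.811% to 5.09% in HPC sets. Il1rn was at 0.0519, 0.0271, 0.0346 and 0.0262 in thalamus sets 1 to 4 and at 0.0172, 0.00692, 0.00108 and 0.0148 in HPC sets 1 to 4. The sets did not overlap, and the means were 0.0350 ± 0.0119 and 0.009998 ± 0.00739 (log2 fold change 1.78, SE 0.49, adjusted p = 0.0396). T cells, a gauge of free RNA, held 0.0185 ± 0.0229 (thalamus) and 0.0140 ± 0.0207 (HPC). The thalamic mean was above that of T cells, with overlap between sets, and the HPC mean was below it. The call was lost on leaving out any thalamus set, HPC set 2 or HPC set 4 (log2 fold change 1.49 to 1.94, adjusted p of 0.0571 to 0.12). With the set number as a block it held (1.84, adjusted p = 0.00502), in a fit that called 29.5% of all genes. The labels do not say that the number pairs the sets. Il1rn was at 0.0660 in the DAM range and 0.00926 in the homeostatic range. Within the DAM range its edgeR log2 fold change between regions was 0.22 (adjusted p = 0.92). The part of the DAM-range share in the difference over all microglia was not tested.

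Il18 was at 0.726, 0.808, 0.785 and 0.888 in thalamus sets 1 to 4 and at 0.802, 1.059, 1.077 and 1.097 in HPC sets 1 to 4. HPC set 1 lay among the thalamus sets and the other HPC sets above them (log2 fold change -0.26, SE 0.09, adjusted p = 0.0726). With the set number as a block the difference passed (-0.26, adjusted p = 0.00551), as it did without HPC set 1 (-0.34, adjusted p = 0.00463), a fit that called 23.5% of all genes. Within the DAM range the edgeR log2 fold change of Il18 was -0.04 (SE 0.15, adjusted p = 0.989). Within the homeostatic range it was -0.08 (SE 0.08, adjusted p = 0.748). Il18 was lower in the DAM range than in the homeostatic range, and the part of the DAM-range share in the difference over all microglia was not tested. Thalamic microglia had Tnf at 0.900, 0.609, 0.503 and 0.681 by set, those of the HPC at 0.759, 0.407, 0.378 and 0.554. Each thalamus set was above the HPC set of the same number, but the labels do not say that a number marks the same mouse. The regions overlapped in Tnf (log2 fold change 0.42, SE 0.26, adjusted p = 0.299). It passed with the block (0.44, adjusted p = 0.000787) and without HPC set 1 (0.70, adjusted p = 0.0324).

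Il1b of microglia was at 0.242, 0.226, 0.0994 and 0.130 in thalamus sets 1 to 4 and at 0.445, 0.0912, 0.110 and 0.126 in HPC sets 1 to 4. The log2 fold change was -0.15 (SE 0.53, adjusted p = 0.876), and 0.79 without HPC set 1 (adjusted p = 0.0768), so its sign rested on that set. Acod1 was at 0.136, 0.0192, 0.00894 and 0.0221 for the thalamus and 0.1498, 0.01195, 0.0141 and 0.0425 in the HPC, with set 1 of each region far above the others. Its log2 fold change was -0.20 (SE 0.93, adjusted p = 0.91), and it turned to 1.25 without HPC set 1 and to -1.73 without thalamus set 1. Il1a, Nlrp3, Casp1 and Osm were between -0.03 (Casp1) and 0.20 (Osm), with overlapping sets and adjusted p of 0.354 to 1.0. Il10 was too low to test.

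The microglial ranges were compared within sets next, to ask how the members went with the DAM state. DAM are microglia that have turned down homeostatic genes and raised genes of lipid handling and phagocytosis. Between DAM-range and homeostatic-range cells of the same 7 sets, edgeR with the set as a block called 8 of 9 members, 5 higher and 3 lower in the DAM range, where 43.2% of all 11816 genes were called. The members did not move as 1 group. Acod1, Il1rn, Il1b, Tnf and Casp1 were higher, Il1a, Il18 and Nlrp3 lower, and Osm was not called. DAM-range cells had a median of 6056 UMIs and homeostatic-range cells 4483. The median log2 fold change of all genes was -0.01 with TMM scaling and -0.23 with scaling by library totals alone.

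**Figure D3:**
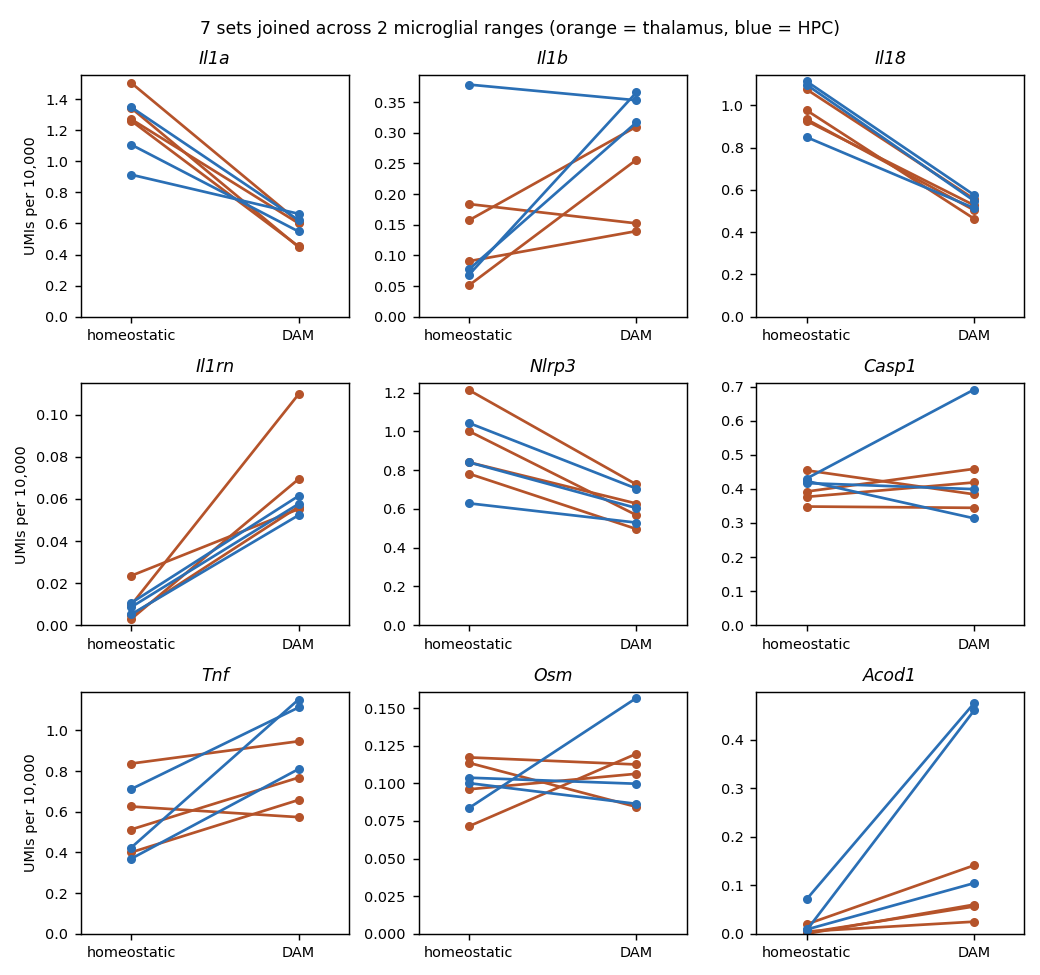
Level of 9 members in homeostatic-range and DAM-range microglia of the same set, in UMIs per 10000, with a line per set (7 sets, thalamus orange and HPC blue). Il1a, Il18 and Nlrp3 fall in 7 of 7 sets and Il1rn and Acod1 rise in 7 of 7.

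Il1a was at 1.51, 1.27, 1.34 and 1.26 in the homeostatic range of thalamus sets 1 to 4 and at 1.35, 1.11 and 0.914 in HPC sets 1, 2 and 4. In the DAM range the same sets had 0.611, 0.602, 0.449 and 0.453, and 0.622, 0.549 and 0.663. No DAM-range value reached the lowest homeostatic one, and the log2 fold change was -1.03 (SE 0.09, adjusted p = 1.06e-09). Il18 fell in 7 of 7 sets from 0.997 ± 0.101 to 0.527 ± 0.0376 (log2 fold change -0.68, SE 0.07, adjusted p = 4.09e-08), again without overlap. Nlrp3 fell in 7 of 7 sets from 0.908 ± 0.193 to 0.609 ± 0.0857 (log2 fold change -0.37, SE 0.08, adjusted p = 0.000358), and its values overlapped across sets.

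Acod1 was at 0.0196, 0, 0.00477 and 0.00232 in the homeostatic range of thalamus sets 1 to 4 and at 0.0714, 0.00880 and 0.00734 in HPC sets 1, 2 and 4. In the DAM range it was at 0.141, 0.0602, 0.0249 and 0.0563, and at 0.476, 0.105 and 0.461. It rose in 7 of 7 sets (log2 fold change 3.63, SE 0.34, adjusted p = 8.6e-09). The log2 fold change was 4.45 without HPC set 1 and 2.73 without the 5% of cells with the most UMIs, and was called in both. Il1rn rose in 7 of 7 sets from 0.00926 ± 0.00687 to 0.0660 ± 0.0201 without overlap (log2 fold change 3.05, SE 0.36, adjusted p = 2.29e-07). Its DAM-range values were 0.0552, 0.0694, 0.110 and 0.0563 in thalamus sets 1 to 4 and 0.0614, 0.0523 and 0.0576 in HPC sets 1, 2 and 4, all above the 0.0472 that was the most in any T cell set. The HPC values rested on 8, 2 and 2 UMIs.

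Tnf rose in 6 of 7 sets, from 0.554 ± 0.176 to 0.860 ± 0.220 (log2 fold change 0.75, SE 0.11, adjusted p = 8.51e-06). Thalamus set 2 went from 0.626 to 0.574, and the rise was widest in HPC set 4, from 0.423 to 1.15. Il1b rose in 5 of 7 sets, from 0.144 ± 0.114 to 0.271 ± 0.0921 (log2 fold change 1.02, SE 0.25, adjusted p = 0.0019). In thalamus set 1 and HPC set 1, the sets richest in Il1b, it went from 0.184 to 0.152 and from 0.379 to 0.353. Without the set as a block the difference in Il1b was not called (0.89, adjusted p = 0.0911). Casp1 was at 0.406 ± 0.0359 and 0.430 ± 0.125 and higher in only 3 of 7 sets. Its call (log2 fold change 0.27, SE 0.10, adjusted p = 0.0261) rested on the scaling, with a log2 fold change of 0.05 by library totals alone. It was also lost without the set as a block (0.23, adjusted p = 0.0589), by DESeq2, and without thalamus set 3, thalamus set 4 or HPC set 4. Osm was at 0.0980 ± 0.0162 and 0.109 ± 0.0245 (log2 fold change 0.30, SE 0.18, adjusted p = 0.188). Il10 had 0 UMIs in the DAM range.

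Interferon-range microglia carry a response to type I interferon. As values only, they held Il18 at 1.22 ± 0.373, Tnf at 0.965 ± 0.305, Il1a at 0.914 ± 0.286 and Il1b at 0.380 ± 0.475 (n = 8). The Il18 level ran from 0.880 to 1.97 and overlapped the homeostatic range, its neighbour in order. Acod1 was at 0.564 in thalamus set 1 and 0.571 in HPC set 1, and at 0 to 0.0860 in the other 6 sets. Il1b was at 1.49 in HPC set 1.

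**Figure D4:**
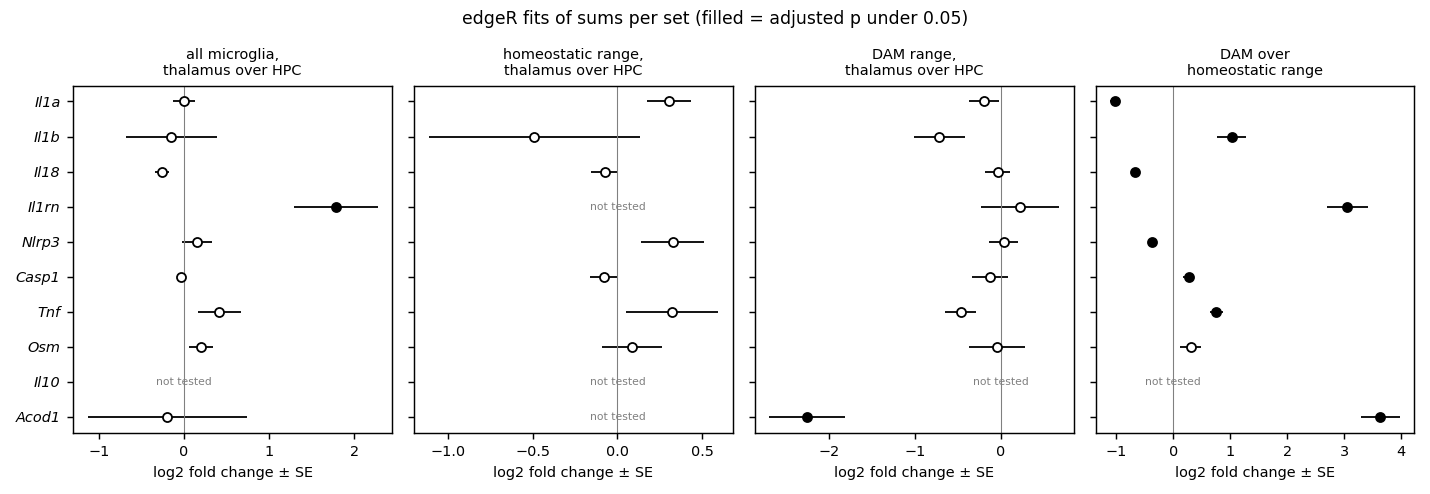
Log2 fold changes ± SE of the members from edgeR in 4 comparisons, namely thalamus over HPC in all microglia, in the DAM range and in the homeostatic range, and DAM range over homeostatic range. Filled points have an adjusted p under 0.05, and members too low for the fit are marked as not tested. Il1rn is called in all microglia (1.78), Acod1 in the DAM range (-2.26), none in the homeostatic range, and 8 of 9 between the ranges.

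Regions were then compared within a range. In the DAM range (4 thalamus and 3 HPC sets) 1 of 9 members was called, Acod1, where 1.71% of 10311 genes were called. Its level was 0.141, 0.0602, 0.0249 and 0.0563 in thalamus sets 1 to 4, from 64, 13, 5 and 20 UMIs, and 0.476, 0.105 and 0.461 in HPC sets 1, 2 and 4, from 62, 4 and 16 UMIs. Thalamus set 1 lay above HPC set 2, so the regions overlapped (log2 fold change -2.26, SE 0.44, adjusted p = 0.0117). The call was lost without HPC set 1 (-1.75, adjusted p = 0.374) and without HPC set 4 (-2.19, adjusted p = 0.0704). It was lost with at least 4 class markers (-1.49, adjusted p = 0.213), at least 5 DAM markers (-1.63, adjusted p = 0.0903) or a second class of at most 0.3 (-1.57, adjusted p = 0.375), and without the 5% of cells with the most UMIs Acod1 was too low to test. It held with the block (-1.94, adjusted p = 8.33e-06). As values only, thalamic Acod1 was also lower on average in the intermediate range (0.0149 ± 0.01565 against 0.0985 ± 0.0932). The same was so in the homeostatic range (0.00666 ± 0.00882 against 0.0248 ± 0.0311). In the interferon range the means were 0.157 ± 0.272 and 0.164 ± 0.274. DAM-range Il1b was at 0.152, 0.310, 0.140 and 0.256 in thalamus sets 1 to 4 against 0.353, 0.366 and 0.317 for HPC sets 1, 2 and 4, without overlap, and was not called (log2 fold change -0.72, SE 0.30, adjusted p = 0.348). Tnf was at 0.947, 0.574, 0.658 and 0.768, and at 1.11, 0.810 and 1.15, with overlap (log2 fold change -0.47, SE 0.18, adjusted p = 0.299). Il1rn, the call over all microglia, was at 0.0726 ± 0.0255 and 0.0571 ± 0.00459 in the DAM range (log2 fold change 0.22, SE 0.46, adjusted p = 0.92).

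In the homeostatic range (4 and 4 sets) edgeR called 0 of 7 members tested, where it called 0.53% of 12081 genes, and DESeq2 called 0 of 8. Il1rn and Acod1, the members called in the other comparisons of regions, and Il10 were too low for the edgeR fit in this range. Il1a alone had an unadjusted p under 0.05. Its level was 1.51, 1.27, 1.34 and 1.26 in thalamus sets 1 to 4 and 1.35, 1.11, 0.942 and 0.914 in HPC sets 1 to 4, so that HPC set 1 lay among the thalamus sets (log2 fold change 0.31, SE 0.13, adjusted p = 0.342). With the set number as a block 3 members were called, all higher in the thalamus, namely Il1a (0.33), Nlrp3 (0.34) and Tnf (0.38), where 5.24% of all genes were called. Without HPC set 1, Il1a (0.45) and Tnf (0.63) were called, where 4.18% of all genes were. Whether the effect of region differed between the 2 ranges was tested as an interaction, where 0.203% of 11816 genes were called. Of 9 members 0 were called, and 1, Tnf, had an unadjusted p under 0.05 (difference of log2 fold changes -0.53, adjusted p = 0.525). For Acod1, the member called in the DAM range, edgeR gave a difference of 0.09 (adjusted p = 0.998). DESeq2 gave no member an adjusted p there.

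A list of genes known to respond to tissue dissociation was in part higher in the thalamus. In the homeostatic range 6 of 9 of its genes tested were higher in the thalamus and 0 lower (median log2 fold change 0.95), where 0.439% of all genes were higher. Its summed level there was 41.6 to 51.9 over thalamus sets against 28.8 to 35.5 over HPC sets. Over all microglia 5 of 9 were higher and 0 lower, where 9% of all genes were higher. In the DAM range 2 of 8 were higher and 0 lower, where 0.989% of all genes were higher. The summed levels overlapped over all microglia, at 29.5 to 43.5 against 27.2 to 35.0, and in the DAM range, at 20.9 to 25.6 against 16.8 to 22.5. T cells had a summed level of 13.8 to 18.6 over thalamus sets against 8.55 to 12.8 over HPC sets, without overlap. Between the ranges 2 of 9 were higher and 6 lower in DAM-range cells (median -0.74), against 23.8% and 19.4% of all genes. The part of dissociation in the differences of the members was not tested.

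T cells of the regions were compared by exact permutation of 4 against 4 sets, where the smallest p is 0.0286. For 0 of 10 members did it fall under 0.05, and the lowest was that of Il10 (exact permutation p = 0.686), at 0.123 ± 0.0785 (thalamus) and 0.166 ± 0.164 (HPC). Tnf was at 0.923, 1.24, 1.59 and 1.52 in thalamus sets 1 to 4 and at 1.12, 1.23, 1.74 and 1.18 in HPC sets 1 to 4. The means, 1.32 ± 0.304 and 1.32 ± 0.286, differed by less than the spread between sets.

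The receptors, regulators and partners of the members were taken from a list of 63 genes, of which 62 were measured. Between DAM-range and homeostatic-range microglia 8 of 50 tested (16%) were higher and 21 (42%) lower, against 23.8% and 19.4% of all genes, with a median log2 fold change of -0.15 against -0.01 for all genes. With library totals alone 5 were higher and 33 lower, against 14.3% and 41.8% of all genes. By role, 2 of 5 IL-1 and IL-18 receptors and inhibitors were higher and 0 lower, 0 and 3 of 5 genes of TNF receptors and release, 0 and 4 of 4 of the IL-6 family, 0 and 1 of 3 of the IL-10 and IL-12 families, 3 and 6 of 14 of the inflammasome, and 3 and 7 of 19 of NF-kB and its feedback. Il18bp, the soluble inhibitor of IL-18, rose in 7 of 7 sets from 0.0358 ± 0.0141 to 0.183 ± 0.0692 (log2 fold change 2.49, SE 0.20, adjusted p = 8.29e-10). Il1r1, the signalling IL-1 receptor, rose from 0.0490 ± 0.0103 to 0.1196 ± 0.0521 in 6 of 7 sets (1.54, SE 0.22, adjusted p = 5.36e-06). Ninj1, which ruptures the membrane of dying cells, rose in 7 of 7 (0.84, SE 0.07, adjusted p = 3.12e-09).

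Il6, a cytokine of the same response, fell from 0.0661 ± 0.0199 to 0.00745 ± 0.00797 (log2 fold change -2.54, SE 0.38, adjusted p = 7.33e-06). The receptor chains Il6ra (-0.83, SE 0.06, adjusted p = 4.22e-11), Lifr (-1.03, SE 0.10, adjusted p = 1.52e-08) and Il10ra (-0.81, SE 0.05, adjusted p = 3.06e-11) fell, as did Zfp36 (-0.83, SE 0.07, adjusted p = 1.58e-09), whose protein speeds the decay of Tnf and other cytokine transcripts. Each of these was lower in 7 of 7 sets.

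Between regions over all microglia, 2 of 52 genes of the list were higher in the thalamus and 3 lower, against 9% and 4.86% of all genes (median log2 fold change -0.06 against -0.01 for all genes). With the set number as a block 6 were higher and 11 lower, 17 of 52 (32.7%) against 29.5% of all genes. With library totals alone 1 was higher and 5 lower, and Pycard was not called. Il1r1 was higher (0.0798 ± 0.00870 against 0.0468 ± 0.01001, log2 fold change 0.81, SE 0.18, adjusted p = 0.018), as was Pycard, the inflammasome adaptor (0.24, SE 0.07, adjusted p = 0.0493). Tnfrsf1b, the second TNF receptor (-0.26, SE 0.04, adjusted p = 0.00615), Casp8, the initiator caspase of death receptors (-0.21, SE 0.05, adjusted p = 0.0294), and Il27, a subunit of the cytokine IL-27 (-0.45, SE 0.13, adjusted p = 0.0437), were lower. Within the DAM range 0 of 48 and within the homeostatic range 0 of 51 were called, or 4 of 51 (7.84%), all higher, with the block in the homeostatic range, where 5.24% of all genes were called.

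It was also described, after the values had been seen and so without a test, which members shared cells within the homeostatic range. Cells with a UMI of Il1b (505) had Tnf at 1.11 ± 0.632 against 0.508 ± 0.179 in the rest, higher in 7 of 8 sets, and Il1a at 1.65 ± 0.352 against 1.20 ± 0.212, also in 7 of 8. Il18 was lower in them, at 0.729 ± 0.204 against 1.02 ± 0.0976, in 8 of 8 sets. Cells with Tnf (1589) had Il1a at 1.47 ± 0.357 against 1.17 ± 0.186 in 8 of 8 sets, and Ccl4, a chemokine raised by the same signals, at 2.56 ± 1.103 against 1.24 ± 0.559 in 8 of 8. The median cell with Il1b had 4732 UMIs and without it 4476, and with and without Tnf 4897 and 4427.

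The likeness of other genes to each member was taken as Pearson's r of log2(level + 0.05) over 51 sums of a set and class or range, among 7265 genes, as a description. The sums share libraries and sets. For Il1b the genes most alike were Mcemp1 (0.955), Pstpip2 (0.949) and Tnfaip2 (0.948), for Acod1 Tnfaip2 (0.924), Cd300ld (0.914) and Mcemp1 (0.912), and for Il1rn Gabarap (0.953), Clec4d (0.953) and Clec4e (0.95). Il1a was most like A830008E24Rik (0.976), Nr6a1os (0.970) and Fam167b (0.969), and Il18 most like E230029C05Rik (0.95), Csf1r (0.941) and Pip4p1 (0.938). Nlrp3 was most like Cd300a (0.956), Nfe2l2 (0.953) and Skap2 (0.952). Il10 was most like Tnfrsf4 (0.867), Cd6 (0.857) and Trac (0.843), of which Cd6 and Trac are markers of the T cell class. The closest genes were less alike for Tnf, with Tnfaip3 (0.740), Vps54 (0.714) and Itpkb (0.698), for Osm, with Ier3 (0.764), Tgm2 (0.750) and Fem1c (0.743), and for Casp1, with Dnajc19 (0.759), Cdk4 (0.747) and Isoc1 (0.709).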

How the data were processed

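Droplet single-cell RNA sequencing (10x Genomics) had been run on CD45+ cells, freed by Dounce homogenisation and sorted. The authors deposited counts, that is raw UMI counts per gene and cell with no normalization, made on GRCm38 with Cell Ranger 7.1.0 per the file headers, while the methods of the study name another version. Whether reads in introns were counted was not stated. Multiplexing oligos took 14.6% of UMIs and were left out. Barcodes shared by matrices of 1 region numbered 0, and 65 occurred in both regions. No doublet caller was run, and leaving out the 5% of cells with the most UMIs was an alternative.

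Kept cells had 200 to 7500 genes and at most 2% mitochondrial UMIs. A class needed at least 3 markers, with the share of markers of the second class at most 0.6 of the first. DAM-range cells had at least 4 DAM markers, interferon-range cells at least 4 interferon markers and cycling cells at least 3 cycling markers, homeostatic-range cells at most 1 DAM marker and at least 3 homeostatic ones. Of these markers, 1 was not analysed here. Of the list of 63 pathway genes, 1 was not found. Counts were summed per set over at least 20 cells and tested with edgeR 4.0.16 (R 4.3.3) by its quasi-likelihood test, after TMM scaling and filterByExpr. The p-values were adjusted by the Benjamini-Hochberg method across all genes that passed the filter, and a gene was called under 0.05. DESeq2 1.42.0 was an alternative. The edgeR fits of classes against microglia (set as a block) were added after the data had been seen. All p-values measure the spread between tagged sets, of which the labels do not say whether they are separate animals, and intervals cover counting error only. The fits were tested on simulated data.

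Deviations from the region means correlated between sets of the same number at 0.473, 0.127, 0.454 and 0.111 for numbers 1 to 4. Sets of different numbers were not set beside them, so these values cannot show that the number pairs the sets. The fit with the number as a block was an alternative. The fit without the block remained the main one, as in the methods of the study no block is used. The pairing that the block assumes was taken from these data and not from the labels. The members and gene lists were chosen with earlier results of these data known. All 10 members are named, the called pathway genes up to 8 per comparison by size, and the 3 genes most like each member among those with a mean of at least 0.2 UMIs per 10000. Promoter letters were searched in 250 bases.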

Additional observations from a re-analysis of the deposited data

Results flagged for a closer look

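In 83 groups of 4 sets the set farthest from the others was compared with the range of the group, and in 10 of them its gap exceeded Dixon's critical value for 4 samples. Chance alone passes this limit in about 1 of 20 groups, and the groups share sets and cells. HPC set 1 stood out in 6. Its Il1b was 0.445 in microglia (other HPC sets 0.0912 to 0.126) and 0.379 in the homeostatic range (0.0682 to 0.0967). Its Il18 was 0.802 in microglia (1.059 to 1.097) and 0.850 in the homeostatic range (1.08 to 1.11). Its Acod1 was 0.0714 in the homeostatic range (0.00734 to 0.0118) and 0.571 in the interferon range (0 to 0.0860). Neutrophils were 9.0% of its cells, and their part in these values was not tested. Thalamus set 1 stood out for Acod1, at 0.136 in microglia (0.00894 to 0.0221) and 0.564 in the interferon range (0 to 0.0371). Tnf in T cells was 1.74 in HPC set 3 (1.12 to 1.23), from 30 cells, and Osm in the intermediate range was 0.139 in thalamus set 4 (0.0835 to 0.0888).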

How the results depend on the processing

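Of 1134 member values refitted under the alternatives, 1099 kept their side of the threshold, 23 lost it, 12 gained it and 0 called values changed sign, while 67 uncalled values did. Over all microglia 1 member was called. This became 3 with the set number as a block (replicate block), 2 with a mitochondrial limit of 5%, and 0 without the 5% of cells with the most UMIs, without cells under 40 Malat1 UMIs per 10000, or with a second class allowed up to 0.8. Leaving out single sets gave 0 to 3 members, and 766 to 3089 genes called against 1815, or 3862 with the block. In the DAM range the 1 member became 0 with at least 4 class markers, at least 5 DAM markers, a second class of at most 0.3, or without the cells with the most UMIs, and 0 to 1 on leaving out single sets. Genes called there went from 176 to 59 without HPC set 1, 286 with the block and 391 without a filter on low counts. In the homeostatic range the 0 members became 3 with the replicate block and 0 to 2 on leaving out single sets, with 64 genes called against 633 with the block, 489 without HPC set 1, 170 by DESeq2 and 18 without thalamus set 3. Between the ranges 6 to 8 members were called under every alternative, 7 to 8 on leaving out single sets. The interaction stayed at 0, with 13 to 119 genes called against 24. Of the 20 pairs of member and class 13 passed, 7 with a second class of at most 0.3, and 7 to 13 on leaving out single sets, since without some sets only the 10 T cell pairs could be tested. The edgeR fits called 15. The block changed no call of a member other than those given beside the results. The cause of these changes was not tested. Depth limits Il10, Il1rn and Acod1, found in 0.0309%, 0.942% and 1.28% of microglia, and thinning every cell to 1000 UMIs lowered 32 of the shares of cells with a UMI by more than the spread between sets.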
